A study of Mus musculus with 2 samples.

Results

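The translation initiation and elongation factor genes were compared between a line of adult mouse mesenchymal stem cells that lacks the microRNA-processing enzyme Dicer (knockout, KO; Dicer -/-) and a line that kept both floxed Dicer copies (wild type, WT; Dicer f/f). Members were the symbols beginning with Eif1 to Eif6 or Eef, without the Argonaute genes (Eif2c) and the eIF2 alpha kinases (Eif2ak). This gave 59 of the 23227 symbols in the deposited table, 50 of them Eif and 9 Eef symbols. Both lines were immortalised and grown from single clones, so the loss of Dicer and a difference between clones cannot be told apart, and the labels also call the cells fibroblasts. PolyA-selected RNA of cells below confluence, grown in serum-containing Alpha-MEM, was sequenced from paired ends; the labels name no treatment and do not say how the lines were immortalised.

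Initiation factors bring the small ribosomal subunit, the initiator tRNA and the capped messenger RNA together and pick the start codon. Elongation factors then deliver each aminoacyl-tRNA to the ribosome and move it along the message. The eIF4F complex binds the cap, eIF2 carries the initiator tRNA and is recharged by eIF2B, eIF3 is the scaffold on the small subunit, and eEF1 and eEF2 carry out the steps of elongation. Dicer acts upstream of microRNAs, whose silencing complexes lower translation as well as messenger RNA levels. The comparison shows messenger RNA levels only and says nothing on protein or on the rate of translation.

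Each deposited mean proved to be the mean of 2 libraries, whose whole read numbers could be recovered for 100% of the genes above 0. They are called the deeper and the shallower library of a genotype after their totals of 15369250 and 14135422 reads in genes in WT and 15718369 and 14969532 in KO. The labels give 1 sample per genotype and do not say whether these libraries are separate cultures, so the spread between them may be technical. Dicer1 itself was at 873 normalised reads in WT (804 and 943) and 565 in KO (573 and 557), a sum over the whole gene that does not single out the deleted part. Of 9 mesenchymal markers, 8 reached 20 normalised reads in every library and Thy1 was listed at 0. Their levels differed between the lines: Col1a1 and Col1a2 fell (ratios 0.432 and 0.486; adjusted p = 0.0121 and 0.0419 by the authors' deposited table). Eng and Vim had ratios below 1 and Cd44, Ly6a, Nt5e and Pdgfrb above 1, without passing. The summed markers of blood, endothelial, epithelial and pluripotent cells stayed at or below 49.3 normalised reads in each library. A bulk value cannot tell fewer cells expressing a gene from less RNA per cell.

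Translation factors differed between libraries of the same genotype, and nearly all in one direction. In WT, 53 of the 55 tested genes (96.4%) were higher in the shallower than in the deeper library, against 48.4% of all tested genes. In KO the count was 49 (89.1%), against 48.6%. The median of the shallower over the deeper library was 1.29 in WT and 1.31 in KO, against 0.991 and 0.988 over all tested genes, and all 77 ribosomal protein genes were higher in the shallower library of both genotypes. The part of this shift in the results that follow was not tested.

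**Figure D1:**
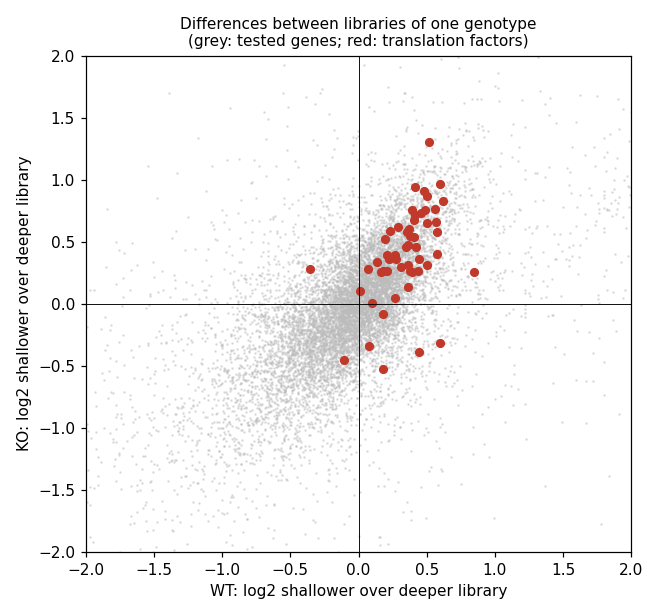
Log2 ratio of the shallower over the deeper library in WT (x axis) and KO (y axis) for tested genes with reads in all 4 libraries (grey) and the 55 translation factors (red); 353 of 11632 genes, none of them a translation factor, lie outside the range drawn. Of the 55 red points, 48 (87.3%) lie above 0 on both axes, against 35.4% of all tested genes.

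Most translation factor messages differed little between the lines, and so did most of all tested genes. Of the 59 genes, 55 reached the minimum mean of 20 normalised reads over both genotypes and could be compared. Of these, 40 (72.7%) had a KO over WT ratio within 1.5-fold of 1, against 64.7% of the 11710 genes tested in the whole table. The median log2 ratio was -0.06 (all tested genes: -0.01). Its sign turned with the library left out: it was -0.19 without the deeper and 0.10 without the shallower WT library, and 0.14 without the deeper and -0.29 without the shallower KO library. At an adjusted p of 0.1, a threshold chosen here, 4 translation factors passed in the authors' deposited table: Eif2b2 rose, and Eif1b, Eif4g3 and Eef1a1 fell. Among all tested genes 5.56% passed on the high side and 5.34% on the low side, so 3 of 55 is a share close to the background and 1 of 55 is below it. The size rule asks for a ratio of at least 2 or at most 0.5 with a 95% counting interval that excludes 1. It held for 1 gene on the high side (Eif2b2; all genes: 8.92%) and 4 on the low side (Eef1a1, Eef1g, Eif1b and Eif4g3; all genes: 8.56%). The low count was 2 with the shallower KO library alone (all genes: 9.52%) and 8 with the deeper one alone (all genes: 11.2%). Each KO library was set against both WT libraries. The libraries did not overlap between genotypes for 20 of the 55, with KO higher for 5 (all genes: 30.4%) and lower for 15 (all genes: 28.8%). A limma test between the 4 recovered libraries called 0 members higher and 1 lower, Eif1b, at an adjusted p of 0.05 (all genes: 3.55% and 3.65%), with 9 members at an unadjusted p under 0.05, against 3162 of the 11710 genes tested.

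**Figure D2:**
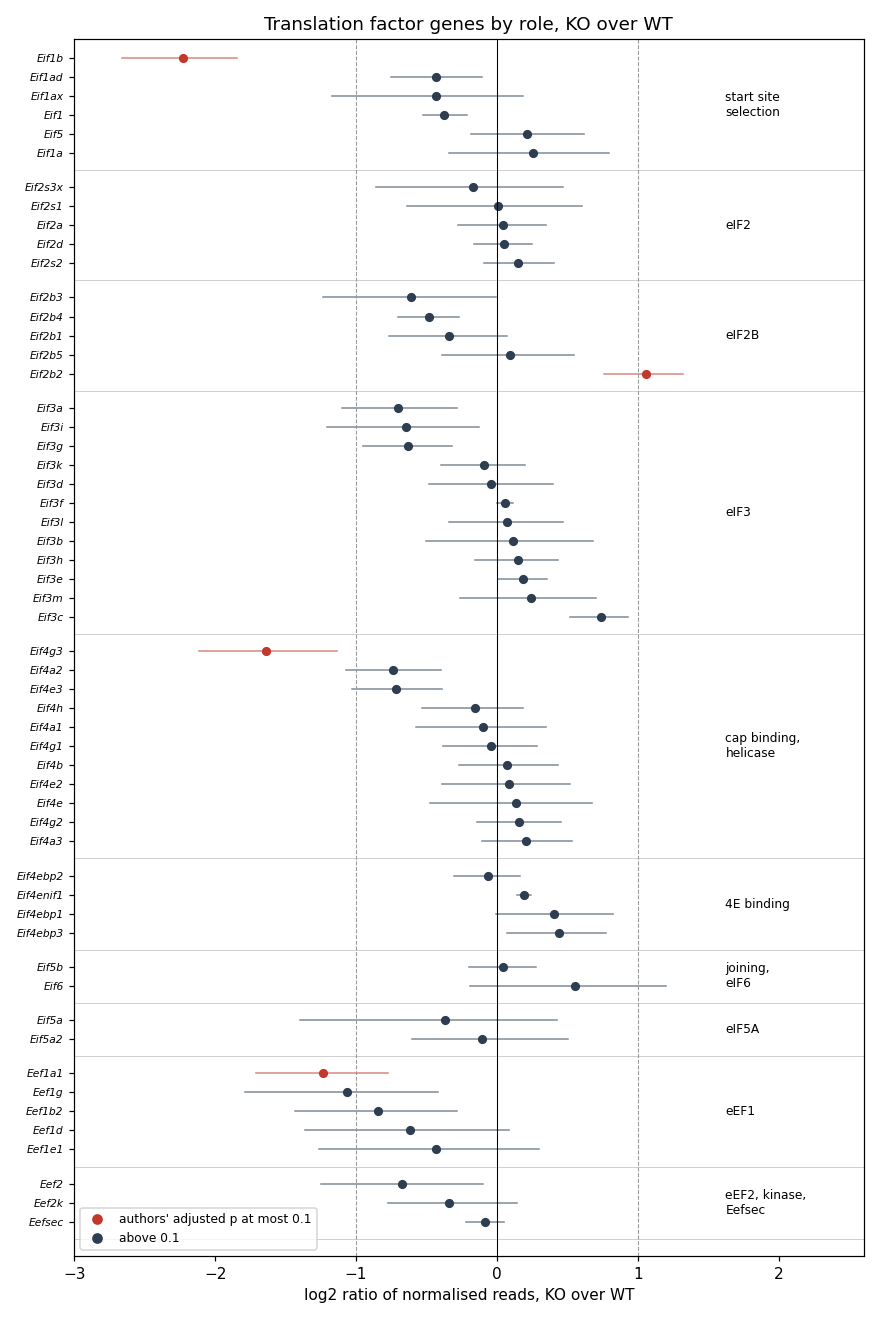
Ratio of KO over WT normalised reads (log2 axis) for the 55 translation factor genes tested, grouped by role; points are ratios of the 2-library means and lines span the lowest to the highest of the 4 ratios between single KO and WT libraries. Red points passed the threshold of 0.1 by the authors' deposited table: Eif1b, Eif4g3 and Eef1a1 lie left of 0 and Eif2b2 right of it, while most other lines cross 0.

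The sequences around the annotated starts of the genes on which the comparison turns are shown here, to let the 4 genes that passed and their relatives be set side by side. They come from RefSeq on build GRCm38.p6, which is not the authors' build (mm9), and each runs 5′ to 3′ from 60 bases before the annotated start to 30 bases after the start, counted with no position 0. Capitals mark matches to 4 short motifs, searched on both strands, with positions given for the first letter of a match. The E-box, which MYC-type factors bind, was searched as CACGTG. The ETS-type site was searched as CCGGAAGT and the cyclic AMP response element as TGACGTCA. The core of the TATA box, the element that the TATA-binding protein recognises, was searched as TATAA. None of these motifs contains another. The elongation factor genes are Eef1a1 (chr9:78481695-78481784, minus strand), Eef1b2 (chr1:63176771-63176860, plus strand) and Eef2 (chr10:81176571-81176660, plus strand).
Eef1a1: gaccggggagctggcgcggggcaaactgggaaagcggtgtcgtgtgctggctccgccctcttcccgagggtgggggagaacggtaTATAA
Eef1b2: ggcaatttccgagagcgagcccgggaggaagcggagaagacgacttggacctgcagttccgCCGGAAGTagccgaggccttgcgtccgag
Eef2: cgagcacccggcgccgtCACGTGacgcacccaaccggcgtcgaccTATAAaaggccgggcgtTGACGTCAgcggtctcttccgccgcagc

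The initiation factor genes that passed are Eif1b (chr9:120492546-120492635, plus strand), Eif4g3 (chr4:137993395-137993484, plus strand) and Eif2b2 (chr12:85219421-85219510, plus strand). Beside the first 2 stand their relatives Eif1 (chr11:100319889-100319978, plus strand) and Eif4g1 (chr16:20672667-20672756, plus strand), which did not pass.
Eif1b: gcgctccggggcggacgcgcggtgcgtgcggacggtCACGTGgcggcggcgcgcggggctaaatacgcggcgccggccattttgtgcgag
Eif1: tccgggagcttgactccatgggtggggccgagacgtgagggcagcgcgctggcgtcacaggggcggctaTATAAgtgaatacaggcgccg
Eif4g3: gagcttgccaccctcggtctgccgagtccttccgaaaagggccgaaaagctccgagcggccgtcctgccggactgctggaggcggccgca
Eif4g1: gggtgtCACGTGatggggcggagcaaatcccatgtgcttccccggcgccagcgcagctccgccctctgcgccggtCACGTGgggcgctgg
Eif2b2: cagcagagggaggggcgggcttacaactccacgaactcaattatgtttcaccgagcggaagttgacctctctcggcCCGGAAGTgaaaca

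The promoter table held 45 of the 59 members, and the first listed start of each gene was used, over its 300 bases (250 before the start and 50 after). An E-box was present in 10 of the 45 (22.2%), against 10.6% of 8428 tested genes with a promoter in the table and 7.24% of all 27025 genes there. The ETS-type site was in 7 of 45 (15.6%; 8.64% and 4.0%), the cyclic AMP response element in 1, Eef2 (2.22%; 3.39% and 1.88%), and the TATA core in 7 (15.6%; 13.02% and 25.5%). The 4 genes that passed had no motif in common: Eif1b held an E-box 24 bases before its start, Eif2b2 an ETS-type site from base 17 after the start, Eef1a1 a TATA core from base 26 after the start, and Eif4g3 none of the 4. Eef2 held an E-box, a TATA core and the cyclic AMP element within the stretch shown. Within the 90 bases shown the pairs also differed. Eif1 held a TATA core from base 10 after the start and Eif1b none, and Eif4g1 held 2 E-boxes and Eif4g3 none. Matches were counted wherever they lay. The TATA cores of Eif1 and Eef1a1 lay after the start, and the others began 15 to 196 bases before it. Whether any of them lies where the TATA-binding protein acts was not tested. A match is a string of letters and not evidence of a bound factor.

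The first role is start site selection, in which eIF1 and eIF1A hold the scanning ribosome open and eIF5 triggers the commitment to a start codon. Of its 6 genes, 1 fell, 0 rose and 5 did not pass in the authors' deposited table (all genes: 5.34% lower and 5.56% higher). Eif1b, a close relative of Eif1, was at 604 and 711 normalised reads in the deeper and shallower WT libraries and at 112 and 168 in the KO libraries. All KO values were far below all WT values. The ratio of the means was 0.213 with a counting interval from 0.187 to 0.242, a 4.69-fold fall (adjusted p = 2.12e-06 by the authors' deposited table). limma gave a log2 difference of -2.25 ± 0.27 (SE; adjusted p = 0.0267), a call that was lost without the shallower WT library or either KO library. In the 4 pairings of single libraries the ratio ran from 0.158 to 0.278.

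Eif1 itself, the main gene for this factor, was at 5106 and 6147 in WT and 4277 and 4405 in KO. Its KO values were lower without overlap, but the ratio of 0.772 did not pass (adjusted p = 0.856 by the authors' deposited table). Eif1b made up 10.6% and 10.4% of the summed reads of the pair in the WT libraries and 2.56% and 3.68% in the KO libraries. This share does not depend on how libraries are scaled, and it was lower in both KO libraries, although the difference between both genes was not tested. The eIF1A genes Eif1a and Eif1ax, which are near-identical and can share reads, had ratios of 1.195 and 0.742 with overlapping libraries. Eif1a was at 1488 and 1984 in WT and 1570.1 and 2581 in KO, and Eif1ax at 1998 and 2667 against 1185 and 2275 (adjusted p = 1 and 0.918 by the authors' deposited table). Eif1ad, named for its likeness to eIF1A, was at 1185 and 1553 in WT and 924 and 1101 in KO, a ratio of 0.739 with both KO values below WT (adjusted p = 0.780 by the authors' deposited table), and Eif5 had 1.16 with overlap.

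eIF2 binds GTP and the initiator tRNA, and the ratios of its 3 main subunit genes stayed close to 1. Eif2s1, which encodes the alpha subunit that stress kinases phosphorylate, was at 1513 and 2118 in WT and 1360 and 2296 in KO, a ratio of 1.01. Eif2s2 had a ratio of 1.11 and Eif2s3x, the X-linked gamma subunit, 0.888 (5487 and 8101 in WT, 4472 and 7591 in KO). The libraries of these 3 genes overlapped between genotypes. Eif2s3y, the Y-linked copy, was nearly silent in both lines at 3.85 and 1.42 normalised reads, below the minimum for comparison. Eif2a and Eif2d, alternative factors for tRNA delivery, both had ratios of 1.03.

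eIF2B exchanges the GDP on eIF2 for GTP, and its 5 subunits form 1 complex. Of these genes, 1 rose, 0 fell and 4 did not pass in the authors' deposited table (all genes: 5.56% higher and 5.34% lower). Eif2b2, the beta subunit, was at 626 and 582 in WT and 1452 and 1059 in KO, higher in both KO libraries. The ratio was 2.08 (1.94 to 2.23; adjusted p = 0.0543 by the authors' deposited table, limma log2 difference 1.04 ± 0.23 SE with adjusted p = 0.0836). Without the deeper KO library the ratio was 1.75 and no longer met the size rule. Eif2b2 also did not pass at an adjusted p of 0.05 in the authors' deposited table.

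None of the other eIF2B subunit genes passed. Eif2b3 (gamma) was at 575 and 850 in WT and 361 and 570 in KO, a ratio of 0.653, and Eif2b4 (delta) at 830 and 937 against 575 and 689, a ratio of 0.715. Both lay lower in both KO libraries without passing (adjusted p = 0.654 and 0.704 by the authors' deposited table). Eif2b1 (alpha) and Eif2b5 (the catalytic epsilon subunit) had ratios of 0.791 and 1.07 with overlapping libraries. Of the summed reads of the 5 genes, Eif2b2 held 14.4% and 10.9% in WT and 32.8% and 20.1% in KO.

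eIF3 is the largest initiation factor, a scaffold on the small ribosomal subunit. None of its 12 tested genes rose or fell in the authors' deposited table, and their ratios ran from 0.614 to 1.66 around a median log2 ratio of 0.06. Eif3c was the highest, at 5935 and 6244 in WT and 11323 and 8947 in KO, with both KO libraries above both WT libraries (ratio 1.66; adjusted p = 0.254 by the authors' deposited table). Eif3a, which with Eif3c nucleates the complex, was the lowest, at 13900 and 19706 in WT and 9208 and 11438 in KO (ratio 0.614; adjusted p = 0.329 by the authors' deposited table). The values of neither gene overlapped between genotypes.

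Eif3g and Eif3i, which sit in one module of the complex with Eif3b, were lower in both KO libraries. Eif3g was at 2130 and 2575 in WT and 1333 and 1708 in KO (ratio 0.646), and Eif3i at 3640 and 4822 in WT and 2086 and 3333 in KO (ratio 0.640). Their adjusted p was 0.444 and 0.452 by the authors' deposited table. Eif3b, by contrast, had a ratio of 1.08 with overlapping libraries. The remaining 7 genes (Eif3d, Eif3e, Eif3f, Eif3h, Eif3k, Eif3l and Eif3m) had ratios between 0.939 and 1.18, and Eif3e (1.14) was the only one of them without overlap. Eif3j was listed at 0 in both genotypes; the mouse has near-identical copies of this gene, and whether their reads were dropped was not tested.

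Levels of eIF3 genes can be set side by side only per transcript length, here the longest coding transcript in GENCODE M21. In WT they ran from 617 normalised reads per kilobase for Eif3f to 3767 for Eif3i, and in KO from 641 for Eif3f to 3997 for Eif3e. Of the genes that bracket the complex, Eif3a stood at 3279 in WT and 2014 in KO, and Eif3c at 1800 and 2996, so the order of both was turned round between the lines on this scale of levels. The transcripts actually used in these cells are not known, so the levels are approximate.

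The cap-binding complex eIF4F joins the cap-binding protein eIF4E, the scaffold eIF4G and the helicase eIF4A. Of the 11 tested genes of this role, 1 fell, 0 rose and 10 did not pass in the authors' deposited table. Over all tested genes 5.34% passed on the low side and 5.56% on the high side. Eif4g3, the least read of the eIF4G genes here, was at 642 and 955 in WT and 221 and 292 in KO. All KO values were below all WT values. The ratio was 0.321 (0.290 to 0.354), a 3.12-fold fall (adjusted p = 0.00862 by the authors' deposited table). In limma the log2 difference was -1.62 ± 0.29 (SE) and just missed the threshold at an adjusted p of 0.0577.

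The other scaffolds did not pass. Eif4g1, the main eIF4G, was at 16385 and 19726 in WT and 15133 and 19896 in KO, a ratio of 0.970. Eif4g2, which lacks the eIF4E-binding part and serves cap-independent initiation, was at 15703 and 19442 against 17576 and 21541, a ratio of 1.11. The libraries of both genes overlapped. Of the summed reads of the 3 genes, Eif4g3 held 1.96% and 2.38% in WT and 0.670% and 0.699% in KO.

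**Figure D3:**
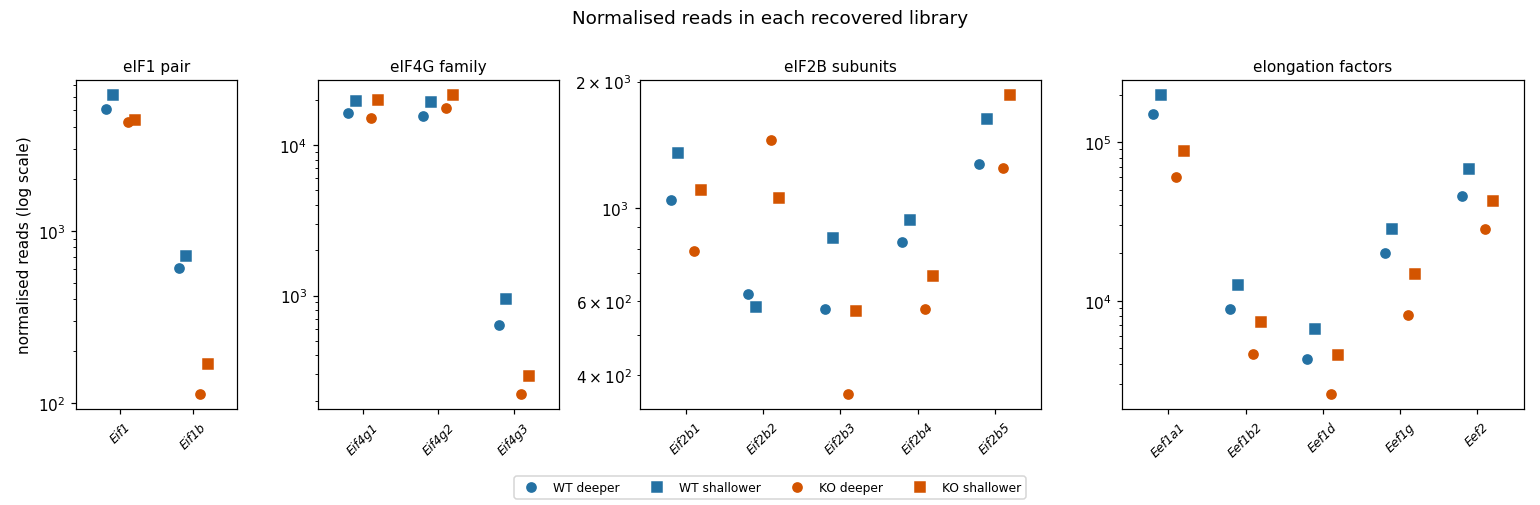
Normalised reads (log axis, different range in each panel) of 4 gene sets in the deeper (circles) and shallower (squares) WT (blue) and KO (orange) libraries; points are single libraries. KO points lie below WT points for Eif1b, Eif4g3 and Eef1a1 and above them for Eif2b2, and squares lie above circles for most genes.

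The cap-binding protein genes gave no call. Eif4e, the limiting cap-binding protein, was at 2338 and 3066 in WT and 2210 and 3724 in KO, a ratio of 1.098. Eif4e2, a cap-binding protein linked to repression, was at 1253 and 1533 against 1168 and 1790.2, a ratio of 1.06. Eif4e3 was at 182 and 142 in WT and 89.2 and 108 in KO, lower in both KO libraries (ratio 0.609; adjusted p = 0.554 by the authors' deposited table). Eif4e1b, an oocyte gene, had 0 reads in all 4 libraries, which allows up to 3 reads, or 2.76 to 3.36 normalised reads, in each.

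The helicase genes gave no call. Eif4a1 was at 16996 and 22112 in WT and 14814 and 21668 in KO, a ratio of 0.933 with overlapping libraries. Eif4a2, a close paralogue that has been linked to microRNA-mediated repression, was at 4683 and 6018 against 2867 and 3562 (ratio 0.601; adjusted p = 0.284 by the authors' deposited table). Its share of the summed reads of the pair was 21.6% and 21.4% in the WT libraries and 16.2% and 14.1% in the KO libraries. Eif4a3, a part of the exon junction complex, had a ratio of 1.16, and the helicase cofactors Eif4b and Eif4h had 1.05 and 0.898.

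The eIF4E-binding proteins hold eIF4E away from eIF4G until mTOR phosphorylates them. None of the 4 genes of this role passed. Eif4ebp1 was at 1523 and 2066 in WT and 2694 and 2056 in KO (ratio 1.32; adjusted p = 0.761 by the authors' deposited table), with 1 KO library just inside the WT range. Eif4ebp2 was at 1441 and 1579 against 1279 and 1613, a ratio of 0.958. Eif4ebp3 was at 115 and 130 in WT and 196 and 136 in KO (ratio 1.36), and Eif4enif1, which shuttles eIF4E and takes part in silencing, at 1496 and 1602 against 1764 and 1768 (ratio 1.14). Both lay above WT in both KO libraries, by margins that did not pass (adjusted p = 0.881 and 1 by the authors' deposited table).

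The genes of subunit joining, eIF6 and eIF5A gave no call. Eif5b, the GTPase that joins the ribosomal subunits, had a ratio of 1.03. Eif6, which keeps free large subunits apart from small ones, was at 1716 and 2391 in WT and 2097 and 3935 in KO (ratio 1.47; adjusted p = 0.897 by the authors' deposited table), with overlapping libraries. Eif5a, whose hypusine-bearing product helps the ribosome past difficult peptide bonds, was at 13760 and 19664 in WT and 7458 and 18441 in KO. Its ratio was 0.775 with overlapping libraries. The KO libraries differed 2.47-fold from each other, the widest gap between libraries of 1 genotype among the 55 tested members. The paralogue Eif5a2 was at 317 and 571 in WT and 376 and 449.8 in KO (ratio 0.930), and it held 2.25% and 2.82% of the summed reads of the pair in WT and 4.80% and 2.38% in KO.

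The elongation factor genes, taken as the Eef symbols, lay low in KO. The classes follow the symbol alone. Eef2k and Eef1e1 therefore stand among the elongation factors, and Eif5a, Eif5a2 and the eIF4E-binding proteins among the initiation factors. All 8 tested Eef genes had ratios below 1, against 22 of the 47 tested Eif genes and 50.4% of all tested genes. Their median log2 ratio was -0.65, against 0.04 for the Eif genes. Of the 8, 1 fell, 0 rose and 7 did not pass in the authors' deposited table (all genes: 5.34% lower and 5.56% higher). Eef1a1 encodes eEF1A, the GTPase that brings aminoacyl-tRNA to the ribosome, and was at 150123 and 198978 in WT and 60672 and 87886 in KO. All KO values were below all WT values. The ratio was 0.426 (0.423 to 0.428), a 2.35-fold fall (adjusted p = 0.00918 by the authors' deposited table; limma log2 difference -1.24 ± 0.29 SE with adjusted p = 0.0880). Without the deeper KO library the ratio was 0.503, just short of the size rule. Eef1a1 has processed pseudogenes, and how the counting treated reads shared with them is not given in the labels.

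Eef1a1 was the most read gene of the table in both WT libraries and in the shallower KO library, and the second in the deeper KO library. It took 1.01% (exact binomial interval 1.0083% to 1.0184%) and 1.26% (1.2498% to 1.2614%) of the reads in genes in WT and 0.420% (0.416% to 0.423%) and 0.590% (0.586% to 0.594%) in KO. Reads were not tagged by molecule as far as the labels say, so these intervals, like those of the ratios, hold counting error alone. Eef1a2, the paralogue of muscle and neurons, had 1 read in the shallower WT library and 0 in the other 3. All 59 genes together took 2.81% and 3.50% of the reads in WT and 1.94% and 2.63% in KO. Without Eef1a1 the other 58 took 1.80% and 2.25% in WT and 1.52% and 2.04% in KO, so that the shares overlapped. Of the 59, the Eef genes took 1.55% and 1.99% in WT and 0.731% and 1.06% in KO, while the Eif genes took 1.26% and 1.51% against 1.21% and 1.57%.

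The eEF1B subunits recharge eEF1A with GTP. Eef1g (gamma) was at 19857 and 28151 in WT and 8139 and 14820 in KO, a ratio of 0.478 (0.471 to 0.486) that met the size rule but did not pass by the authors' deposited table (adjusted p = 0.166). Without the deeper KO library it was 0.617, and without the shallower WT library 0.578. Eef1b2, the exchange subunit, was at 8858 and 12528 in WT and 4638 and 7281 in KO (ratio 0.557; adjusted p = 0.282 by the authors' deposited table). The values of neither gene overlapped between genotypes. Eef1d, the other exchange subunit, was at 4287 and 6599 against 2563 and 4539 (ratio 0.652). Its adjusted p was 0.760 by the authors' deposited table. Eef1e1, a tRNA synthetase scaffold subunit, had a ratio of 0.740. Both Eef1d and Eef1e1 had overlapping libraries.

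eEF2 moves the ribosome along by 1 codon. Eef2 was at 45458 and 67831 in WT and 28468 and 42513 in KO, lower in both KO libraries (ratio 0.627, 0.621 to 0.632; adjusted p = 0.560 by the authors' deposited table). Eef2k, the kinase that inactivates eEF2, had a ratio of 0.791 with overlapping libraries. Eefsec, which inserts selenocysteine, had a ratio of 0.942.

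Cytosolic ribosomal protein genes, other abundant messages of the translation machinery, lay low in KO as well. Of 77 tested, 76 had ratios below 1, with a median log2 ratio of -0.66. At an adjusted p of 0.1 in the authors' deposited table, 14 passed on the low side and 0 on the high side (all genes: 5.34% and 5.56%). limma called 0 of the 77 lower and 0 higher at an adjusted p of 0.05 (all genes: 3.65% and 3.55%). The difference between these classes was not tested.

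**Figure D4:**
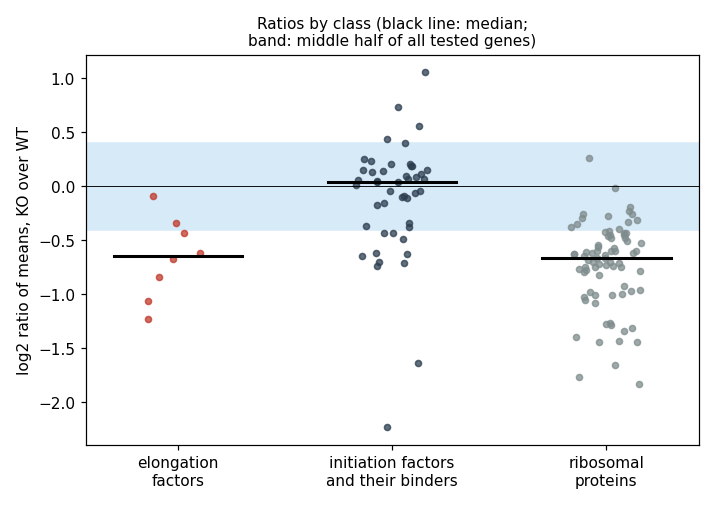
Log2 ratio of KO over WT means for tested elongation factors (8 genes), initiation factors (47 genes) and ribosomal proteins (77 genes); each point is a gene, black lines are medians and the band is the middle part of all tested genes, from the first to the last quartile. The elongation factors (Eef symbols) and ribosomal proteins centre at -0.65 and -0.66, and the initiation factors (Eif symbols) at 0.04.

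The class medians differed with the libraries that were set against each other. With the deeper KO library against the shallower WT library the median log2 ratio of the 8 elongation factors was -1.31, and with the shallower KO against the deeper WT library it was -0.14, with 6 of 8 genes below 1. Set deeper against deeper it was -0.71, again with 6 of 8 genes below 1. Set shallower against shallower it was -0.72, with all 8 below 1. For the 47 initiation factors the 4 medians in this order were -0.39, 0.35, -0.06 and 0.03. For the 77 ribosomal protein genes they were -1.35, -0.03, -0.88 and -0.52, and with the shallower KO against the deeper WT library only 45 of the 77 lay below 1. Over all tested genes every one of the 4 medians lay between -0.00 and 0.02. Eef1a1, Eif1b and Eif4g3 were lower in KO and Eif2b2 higher in each of the 4 pairings.

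Other genes of the pathway, taken from a list of 44 regulators and partner factors, are given next. Of 43 tested, 1 rose, 0 fell and 42 did not pass in the authors' deposited table (all genes: 5.56% higher and 5.34% lower), and their median log2 ratio was 0.00. Gfm2, a mitochondrial factor for ribosome recycling, was at 360 and 318 in WT and 838 and 857 in KO, a 2.50-fold rise (adjusted p = 0.0109 by the authors' deposited table). Pabpc4, a poly(A)-binding protein that bridges the tail to eIF4G, was at 1880 and 3343 in WT and 708 and 1341 in KO (ratio 0.392; adjusted p = 0.310 by the authors' deposited table). It met the size rule without passing.

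The regulators of eIF2 and eIF4E showed no call. All 6 genes of the eIF2 alpha kinases and phosphatase subunits had ratios above 1, from 1.06 to 1.59 (all genes: 49.6% above 1). Libraries were free of overlap between genotypes for 3 of the 6, with KO higher (all genes: 30.4%). Between the shallower libraries alone, Eif2ak3 and Ppp1r15a had ratios below 1 (0.871 and 0.979). Eif2ak2 (PKR, the kinase that senses double-stranded RNA) had the highest ratio. It was at 841 and 812 in WT and 1286 and 1344 in KO (adjusted p = 0.399 by the authors' deposited table). Of the 11 mTOR and MAPK pathway genes, 8 had ratios above 1 and the range was 0.774 to 1.44. The 6 genes that make hypusine on eIF5A or diphthamide on eEF2 all had ratios below 1, from 0.639 to 0.975 (all genes: 50.4% below 1). Of these 6, 2 had libraries without overlap, with KO lower (all genes: 28.8%), and Dph5 had a ratio of 1.20 between the shallower libraries. Denr and Mcts1, which act together in reinitiation and recycling, had ratios of 0.505 and 0.545, both lower in both KO libraries (adjusted p = 0.403 and 0.222 by the authors' deposited table). Of the others on the list, Tsfm, a mitochondrial exchange factor, was at 505 and 515 in WT and 240.1 and 321 in KO (ratio 0.551; adjusted p = 0.219 by the authors' deposited table). Further ratios beyond 1.5-fold without a call were 0.561 for Pdcd4, 0.639 for Pabpc1, 0.651 for Dph2, 0.639 for Dph3, 1.58 for Eif2ak4 and 1.52 for Ppp1r15a. The libraries of Pdcd4, Pabpc1, Dph2 and Ppp1r15a overlapped between genotypes. Ppp1r15a was at 586 and 785 in WT and 1311 and 768 in KO.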

How the data were processed

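PolyA RNA of 1 WT and 1 KO sample was sequenced, per the labels' protocols. TopHat 1.4.0, DESeq 1.10.1 and build mm9 are listed, without role or order, per the submitters' processing notes. Read counter: not given in the sources used here. For each gene the authors deposited a signal, its mean reads after division by size factors in conditions A and B, with the ratio (fold) of B over A, its log2 value, and p-values; the comparison's title, which puts WT first, was taken to make A the WT and B the KO condition. The deposited p-values were copied and read at an adjusted p of 0.1, a threshold chosen here.

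Whole reads of 2 libraries per genotype were recovered from the steps of each mean; exactly 1 pair of whole numbers matched each deposited value, within the rounding of its digits. Depth was 14135422 to 15718369 reads in genes, and intervals hold counting error only. Genes with a mean of at least 20 normalised reads were tested. Ratios carry exact (Clopper-Pearson) 95% intervals, and limma 3.58.1 (R 4.3.3) tested log2(normalised reads + 1) across all tested genes with Benjamini-Hochberg adjustment. Python 3.11.15, scipy 1.17.1 and matplotlib 3.10.9 did the rest, and the scripts were tested on simulated data. The design had taken the table to hold 1 library per genotype, so tests between libraries are alternatives. Other minimum means, folds, thresholds, scalings and pseudocounts, and leaving out each library, were tried. Members and lists were chosen with earlier results of these data known. Library values and ratios are given for tested members at least 1.5-fold apart or past that threshold and for tested genes of fixed paralogue sets. Intervals and adjusted p-values are given for some of them. Other members are given by range, ratio or reads. Examples from the wider list were chosen after their values were seen.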

Additional observations from a re-analysis of the deposited data

How the results depend on the processing

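The counts of translation factors past the size rule, 1 higher and 4 lower, were the same with no minimum mean, with a minimum of 100 and under scaling by the upper quartile or by total reads. Over all genes, 8.92% were higher and 8.56% lower in the main comparison, and 7.5% and 6.29% with a minimum of 100. With no minimum these shares were 8.43% and 9.11%, with upper-quartile scaling 8.46% and 9.36%, and with total-read scaling 9.69% and 7.91%. Thus 4 of 55 lower was a smaller share than over all genes in the main comparison and a larger one with a minimum of 100. The 1 of 55 higher was a smaller share in each. Under a 1.5-fold rule the counts were 2 higher and 13 lower (all genes: 17.3% and 17.9%). Leaving out 1 library at a time gave 0 to 1 higher and 2 to 8 lower, and median log2 ratios of -0.29 to 0.14. The shares over all genes were then 7.51% to 11.5% higher and 9.07% to 11.2% lower. Without the deeper KO library Eif2b2, Eef1a1 and Eef1g no longer met the size rule (1.75, 0.503 and 0.617), and Eef1g did not without the shallower WT library (0.578). In a comparison chosen after seeing the data, the shallower KO was set against the shallower WT library. It gave 0 higher and 3 lower (all genes: 8.96% and 8.98%), with Eif2b2 at 1.82 and Eef1g at 0.526. The same comparison of both deeper libraries gave 1 higher and 5 lower (all genes: 10.1% and 10.1%), with Eif2b2 at 2.32 and Eef1g at 0.410. At an adjusted p of 0.05 in the authors' deposited table, 0 were higher and 3 lower (all genes: 4.48% and 4.3%). limma called 0 higher and 1 lower (all genes: 3.55% and 3.65%). When all genes with reads were fitted, it called 0 lower (all genes: 1.84%), with 3 at an unadjusted p under 0.05. Leaving out a library gave 0 to 1 lower in limma; without either KO library it called 0 genes in the whole table, and the lone library was assumed to vary like the other genotype. The cause of these changes was not tested. Direction was the same for Eef1a1, Eef1g, Eif1b, Eif4g3 and Eif2b2 under each scaling and each library left out. Total-read scaling moved the median of all tested genes to 0.06 and the upper quartile to -0.05. No paired analysis was possible because the labels give 1 sample per genotype and number no library.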
